A study of Homo sapiens with 6 samples.

Results

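Lysosomes are membrane-bound compartments in which proteins, lipids and sugar chains are broken down at acidic pH. The acid is made by the V-ATPase, a rotary proton pump whose V1 sector in the cytosol splits ATP and turns the V0 sector that carries protons through the membrane. Soluble hydrolases reach the compartment by way of mannose 6-phosphate receptors and work in its lumen, while heavily glycosylated membrane proteins, channels and transporters form its wall and let the products out. Many of these genes share a short promoter element, the CLEAR element, which is an extended E-box bound by the transcription factors TFEB and TFE3. The 48 genes described here were chosen by name from a deposited table of 22925 genes, 47 of them by the symbol in the table and TMEM55A under its current symbol PIP4P2, a synonym in RefSeq. They comprise 16 V-ATPase genes, 20 genes for lumenal hydrolases and their activators and 12 genes for membrane proteins and carriers.

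The samples were HT-1080 cells, a human fibrosarcoma line, grown for 48 h in 1% DMSO (3 libraries) or in 1% DMSO with 20 μM PhenDC3 (3 libraries). PhenDC3 is a small molecule that stabilizes G quadruplexes, folded structures of guanine-rich nucleic acid, and both groups carried the same amount of solvent. Sequencing of poly(A) RNA gave 12574952 to 14292987 recovered reads per DMSO library and 7371056 to 9386691 per PhenDC3 library. Values are normalized counts, that is, gene reads divided by 1 size factor per library.

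All 48 genes had a mean of 5 or more normalized counts and were tested, and 46 had a mean of 100 or more. Of the mesenchymal markers VIM, FN1, COL6A1, COL6A2, CDH2, MMP14, THY1 and SPARC, all 8 had a row, and their summed level was between 57469 and 62214 normalized counts in DMSO libraries and between 41975 and 44215 in PhenDC3 libraries, with THY1 under 10 in every library. The markers did not move together. VIM fell to 0.541 of its DMSO mean, CDH2 to 0.563, FN1 to 0.622 and SPARC to 0.857. COL6A1 rose 1.30-fold, while COL6A2 (1.02-fold) and MMP14 (0.987-fold) hardly changed. DMSO replicate 3 stood somewhat apart. It was the highest of the 3 DMSO libraries for 29 of the 48 genes, whose longest coding transcript had a median length of 2082 bases, and the lowest for 10, with a median of 4414.5 bases. Transcripts of the mitochondrial genome took between 3.72% and 3.96% of all normalized counts in the DMSO libraries and between 15.4% and 15.5% in the PhenDC3 libraries. Scaled to the reads of nuclear genes alone, 33 of the 48 genes were higher and 6 lower, where the deposited scaling gave 33 and 7. The labels do not state whether replicate libraries were separate cultures, and every p-value here rests on library-to-library spread that could be purely technical.

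Promoter sequence was at hand for 32 of the 48 genes, in RefSeq windows on GRCh38.p14 from 250 bases before to 50 after each annotated start. The E-box core CACGTG was sought on both strands, together with 3 nested extensions of it: TCACGTG, TCACGTGA and the CLEAR palindrome, which is TCACGTGA with a G before and a C after it. The 7-base form occurred in 13 of the 32 genes (40.6%), against 4.49% of the 27305 genes with a window. The 8-base form occurred in 7 (21.9%, against 1.176%) and the 10-base palindrome in 4 (12.5%, against 0.421%). Among windows of the genes tested alone, the backgrounds were higher, at 7.31%, 2.29% and 0.903%. The genes were chosen by name, and many of them are known to share this element. Their higher shares could be foreseen from that choice and are not a result of the treatment. The lines below show, for each of the 13 genes, 30 bases around the match nearest to the start, 5′ to 3′ on the gene's strand, with the match in capitals. They are shown because they carry the sequence that these genes have in common.

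ATP6V1G1 (chr9:114587699-114587728, plus strand): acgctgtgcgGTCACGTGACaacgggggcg
GAA (chr17:80101538-80101567, plus strand): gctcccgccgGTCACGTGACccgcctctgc
IGF2R (chr6:159969042-159969071, plus strand): ccgggcggctGTCACGTGACgcggttccgg
MCOLN1 (chr19:7522598-7522627, plus strand): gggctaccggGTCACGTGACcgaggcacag
ATP6V0D1 (chr16:67481199-67481228, minus strand): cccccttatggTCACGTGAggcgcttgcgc
CTSA (chr20:45891298-45891327, plus strand): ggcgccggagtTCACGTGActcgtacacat
LAMP1 (chr13:113297226-113297255, plus strand): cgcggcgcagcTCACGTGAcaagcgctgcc
ATP6V0B (chr1:43974909-43974938, plus strand): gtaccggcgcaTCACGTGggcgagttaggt
CLCN7 (chr16:1475038-1475067, minus strand): cccgtcgcgcgTCACGTGgccgccggcgcg
CTSD (chr11:1763957-1763986, minus strand): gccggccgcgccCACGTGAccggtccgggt
CTSF (chr11:66568712-66568741, minus strand): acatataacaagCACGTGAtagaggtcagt
M6PR (chr12:8949473-8949502, minus strand): agtttcccacgaCACGTGAgtgtgaggggc
NEU1 (chr6:31862930-31862959, minus strand): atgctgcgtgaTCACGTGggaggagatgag

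Counted in bases from the start, the centre of the match nearest to it lay between -77 (M6PR) and 2 (LAMP1) in 11 of the 13 genes, at -11 in MCOLN1 and -28 in GAA among them. It lay farther out in NEU1 (-123) and CTSF (-120), and further matches were at -129 in IGF2R and from -189 to -139 in LAMP1. LAMP1 held 6 matches of 7 bases or more, IGF2R 3, and GAA, MCOLN1, CTSA, CLCN7 and ATP6V0B 2 each. The related M-box TCATGTG was in 6 of the 32 genes (18.8%, against 3.59% of all), and a G quadruplex motif (4 tracts, each at least 3 G long, separated by 1 to 7 bases) was in 12 (37.5%). That last share was above the 27.9% of all genes and below the 41.3% of the genes tested.

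**Figure D1:**
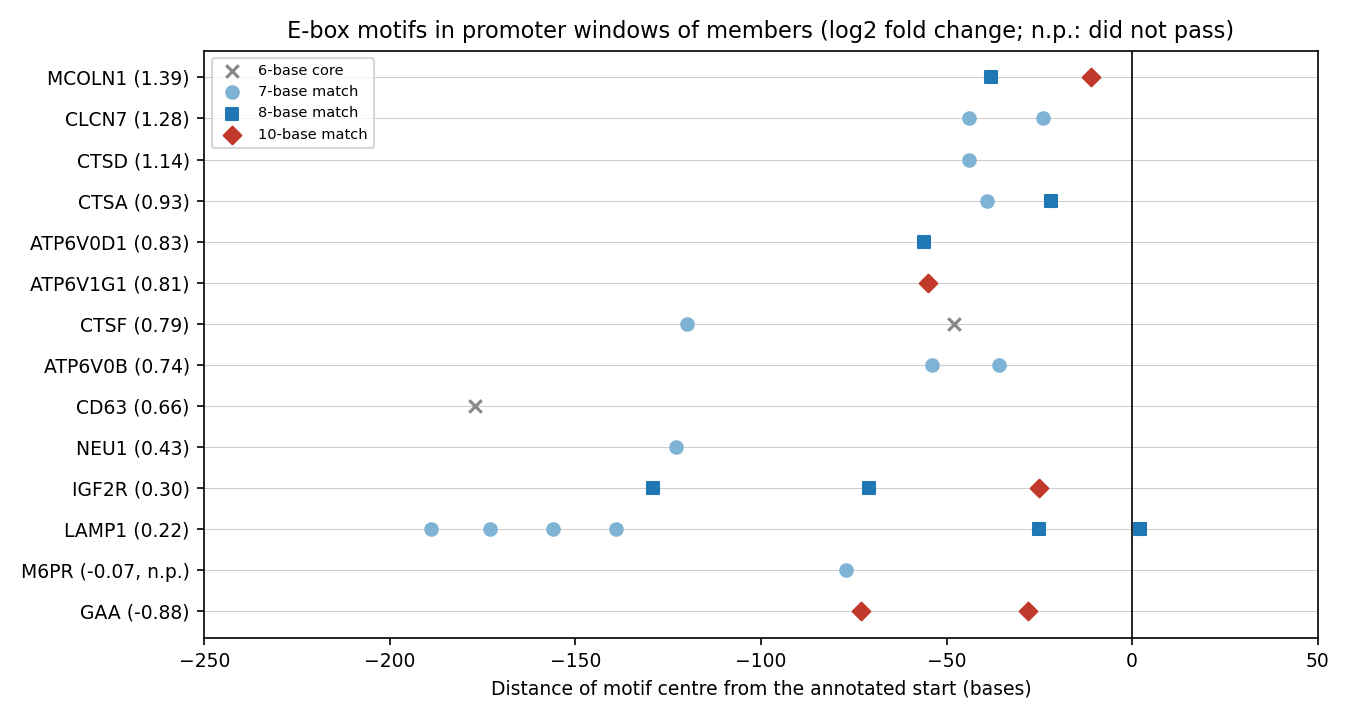
Positions of E-box matches in the promoter windows of the 14 genes that held one, ordered by log2 fold change (in parentheses). The horizontal axis is the distance in bases from the annotated start, symbols give the length of the match, and most matches sit within the 100 bases before the start.

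Most of the 48 genes were higher in PhenDC3. They were chosen with earlier results of these data known, so the counts below do not test lysosomal genes at large. In limma, a linear model that shares variance information across genes, with a Benjamini-Hochberg adjusted p under 0.05 over 16482 tested genes, 33 were higher, 7 lower and 8 did not pass. Among all tested genes 59.6% were called, 29.2% as higher and 30.4% as lower. By the adjusted p in the authors' deposited table, 32 were higher and 6 lower. The median log2 fold change of the 48 was 0.50, beside -0.02 for all tested genes. It was 0.06 for the 84 tested lysosome genes outside the 48. At 2-fold or more, 11 of the 48 were higher, against 9.87% of all tested genes, and none was lower, against 6.46%. The libraries of the 2 groups did not overlap in 42 of the 48, where the share over all tested genes was 64.1%. Without DMSO replicate 3 the median rose to 0.62. RNA was measured in bulk, so a change in the number of cells with a transcript and a change in its amount per cell cannot be told apart.

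**Figure D2:**
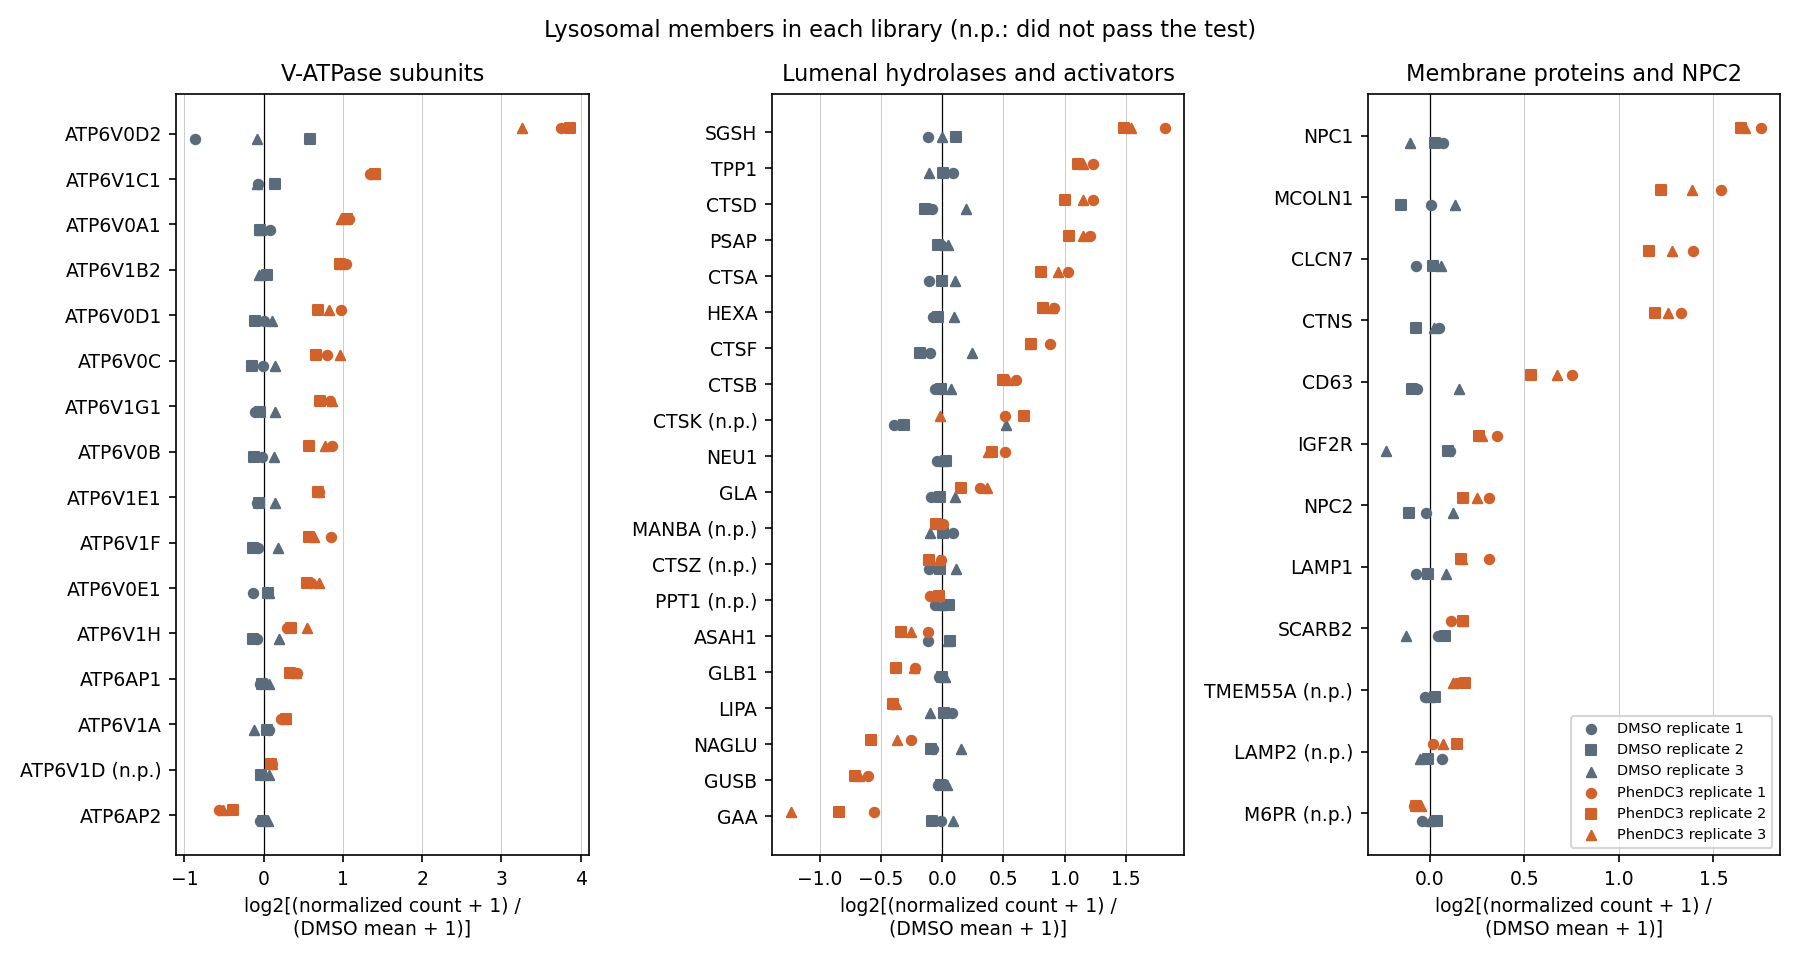
Each point is the normalized count plus 1 of a gene in 1 library over the DMSO mean plus 1, on a log2 scale, in panels for the V-ATPase, lumenal proteins and membrane proteins. The V-ATPase genes lie mostly to the right of 0 in PhenDC3, while the lumenal genes spread from -0.88 to 1.62 in log2 fold change.

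Most of the V-ATPase genes rose, but by unlike amounts, with log2 fold changes from -0.49 to 3.75 over all 16. Of 16, 14 were higher (87.5%, against 29.2% of all tested genes), ATP6AP2 was lower and ATP6V1D did not pass. Their median log2 fold change was 0.72. No library of one group overlapped the other in any of the 16, where the share over all tested genes was 64.1%. Summed over the 16 genes, the level went from 11314 ± 249.9 to 17355 ± 363 normalized counts (mean ± SD, n = 3), or 1.53-fold.

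All 6 genes of the membrane sector V0 were called as higher, against 29.2% of all tested genes. ATP6V0A1, one of the forms of the large a subunit that holds the proton half-channels, was at 385, 354 and 357 normalized counts in DMSO and 770.4, 761 and 720.3 in PhenDC3, a 2.05-fold rise (limma log2 change 1.04, SE 0.08, adjusted p = 4.69e-10). ATP6V0D1, the widely expressed d subunit that couples the rotor to the ring, was at 682, 632 and 733 in DMSO and 1347, 1099 and 1209.7 in PhenDC3, or 1.79-fold. ATP6V0B, a proteolipid of the rotating ring, was at 663, 618 and 736 in DMSO and 1219, 1002 and 1148 in PhenDC3, or 1.67-fold. In each of these the lowest PhenDC3 library was above the highest DMSO library. ATP6V0C, the main ring proteolipid, rose 1.76-fold and ATP6V0E1, a small membrane subunit, 1.53-fold. ATP6V0C shares 57.5% of its annotated exon bases with a readthrough gene on the same strand, so how reads were assigned there is uncertain.

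ATP6V0D2, the d subunit best known from osteoclasts and macrophages, was very low in DMSO. It was at 0.778, 3.87 and 2.07 normalized counts in DMSO and 42.6, 46.1 and 30.2 in PhenDC3. In reads this was 9 in the 3 DMSO libraries and 90 in the 3 PhenDC3 libraries, a scaled ratio of 17.7 (95% exact interval 8.91 to 39.9, for counting error only). On the log2(value + 1) scale the change was 3.75 (limma, SE 0.38, adjusted p = 4.67e-08). Per kb it stayed far below its paralog, and made up 0.235% ± 0.177 of the d subunit level in DMSO and 2.25% ± 0.575 in PhenDC3. Of 5 osteoclast markers, DCSTAMP, OCSTAMP and CALCR had no row, and ACP5 and NFATC1 had a summed level between 4.64 and 11.03 normalized counts in DMSO libraries and between 17.9 and 26.04 in PhenDC3 libraries. Of 8 macrophage markers PTPRC, CD14, AIF1 and TYROBP had no row, and the summed level of CSF1R, ITGAM, FCER1G and LYZ lay between 10.3 and 17.8 in DMSO and between 19.7 and 25.3 in PhenDC3. These sums rest on few reads. ACP5, from 28 reads in DMSO and 38 in PhenDC3, was called as higher (limma adjusted p = 0.00497). By the authors' DESeq2 values it did not pass (adjusted p = 0.0525). CSF1R did not pass (limma adjusted p = 0.138), and NFATC1, ITGAM, FCER1G and LYZ were too low to be tested. All libraries came from cultured HT-1080 cells, and the cause of the rise in ATP6V0D2 was not tested.

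In the ATP-splitting sector V1, 7 of 8 genes were called as higher (87.5%, against 29.2% of all tested genes). The largest change was in ATP6V1C1 (ENSG00000155097, chromosome 8), the C subunit that clamps V1 to V0, at 713, 830.5 and 706 normalized counts in DMSO and 1911, 1995 and 1983 in PhenDC3, or 2.62-fold (limma log2 change 1.39, SE 0.07, adjusted p = 2.13e-12). ATP6V1B2, the nucleotide-binding B subunit, was at 1200.1, 1219 and 1138 in DMSO and 2433, 2321 and 2317 in PhenDC3, or 1.99-fold. For both, every PhenDC3 library was far above the DMSO range. The partner of ATP6V1B2 in the catalytic ring, ATP6V1A, rose 1.20-fold (limma log2 change 0.26, SE 0.07, adjusted p = 0.00156). Between these in size was the stalk subunit ATP6V1G1, at 443, 465 and 529 in DMSO and 856, 786 and 869.9 in PhenDC3 (1.75-fold), and the groups lay apart. ATP6V1E1, another stalk subunit, was at 777, 790.3 and 909.5 in DMSO and 1343, 1328 and 1345 in PhenDC3 (1.62-fold). The rotor subunit ATP6V1F rose 1.62-fold and the regulatory subunit ATP6V1H 1.32-fold. ATP6V1D, the central rotor shaft, was at 672, 676 and 721 in DMSO and 743, 737 and 744 in PhenDC3 and did not pass (limma log2 change 0.11, SE 0.07, adjusted p = 0.207), and its 95% interval ran from -0.04 to 0.25. Its PhenDC3 libraries were all slightly above its DMSO libraries.

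The 2 accessory proteins went opposite ways. ATP6AP1, a glycoprotein needed for assembly of the pump, was at 769, 786 and 836 normalized counts in DMSO and 1064, 1002 and 1063 in PhenDC3, or 1.31-fold. ATP6AP2 (ENSG00000182220, chromosome X), also known as the prorenin receptor, fell from 972, 994 and 1043 in DMSO to 679, 768 and 703 in PhenDC3, or to 0.715 of its DMSO level (limma log2 change -0.49, SE 0.07, adjusted p = 7.84e-06). The highest PhenDC3 library was below the lowest DMSO library. It was called as lower under all 12 other settings and when any 1 of the 6 libraries was dropped.

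Of 9 other V-ATPase paralogs, which are not among the 48, 6 could be tested, and none was higher and 3 were lower. The lower share was 50%, against 30.4% of all tested genes, and the higher share of all tested genes was 29.2%. TCIRG1, the a3 form known from osteoclast and lysosomal pumps, fell from 714, 664 and 741 normalized counts in DMSO to 621, 505 and 526 in PhenDC3, or to 0.780 of its DMSO level (limma log2 change -0.36, SE 0.08, adjusted p = 0.000988). ATP6V0E2 fell to 0.516 (limma log2 change -0.95, SE 0.11, adjusted p = 1.82e-07) and ATP6V1E2 to 0.555 (limma log2 change -0.85, SE 0.15, adjusted p = 4.38e-05). ATP6V0A2, the a2 form described in Golgi pumps, was at 326, 298 and 274 in DMSO and 282, 266 and 303 in PhenDC3 and did not pass (limma log2 change -0.08, SE 0.09, adjusted p = 0.51). Taken per kb of the longest coding transcript, ATP6V0A1 made up 22.2% ± 0.763 of the a subunit level in DMSO and 42.1% ± 2.05 in PhenDC3. TCIRG1 made up 66.1% ± 1.88 and 47.4% ± 2.44 (mean ± SD, n = 3 each), and the 3 libraries of each group lay apart for both. The shares are given as a description, with no test of their own. ATP6V0E1 likewise took 82.6% ± 1.31 of the e subunit level in DMSO and 93.4% ± 0.46 in PhenDC3, and ATP6V1E1 90.6% ± 1.02 and 96.6% ± 0.583 of the E subunit level. Of 8 tested genes for assembly and regulation of the pump, 2 were higher, DMXL2 at 1.45-fold and TMEM199 at 1.40-fold, and none was lower. The higher share, 25%, was near the 29.2% of all tested genes.

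**Figure D3:**
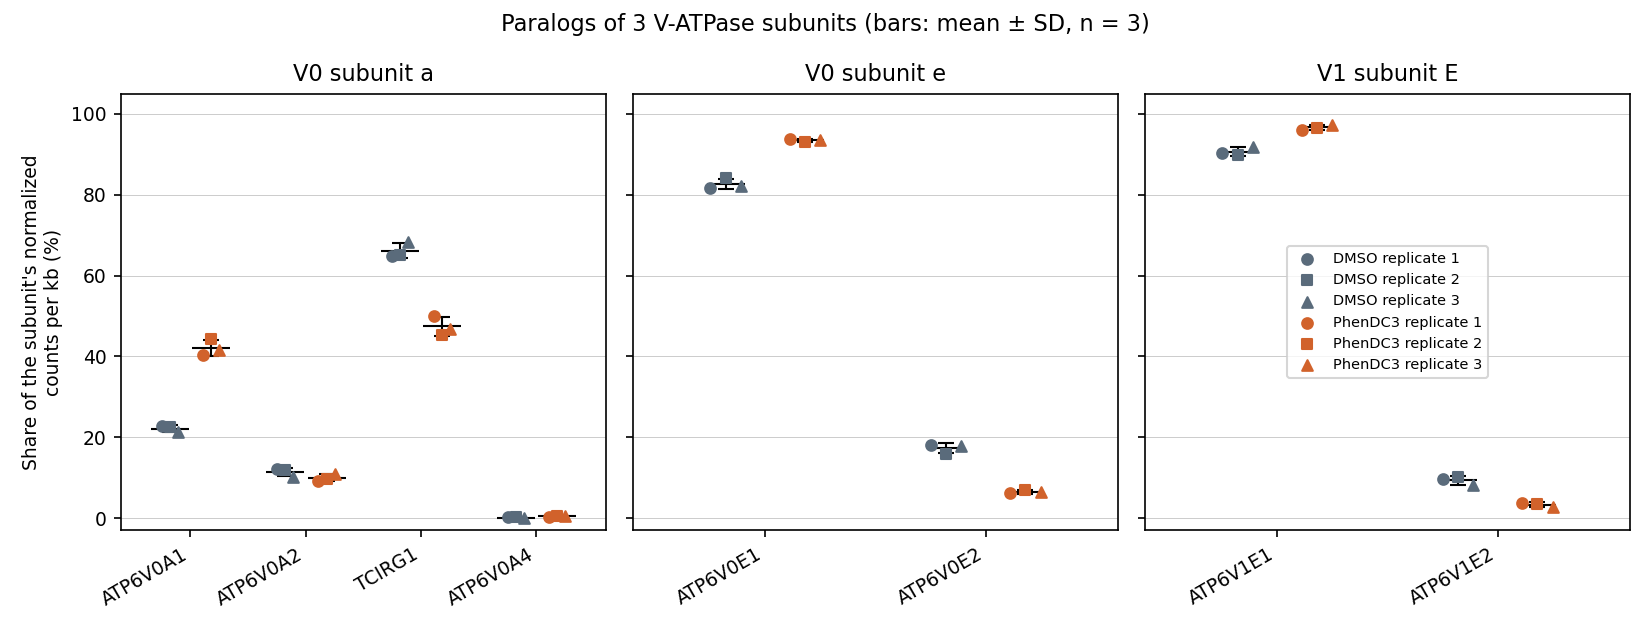
Share of each paralog in the summed normalized counts per kb of 3 V-ATPase subunits, by library, with mean ± SD (n = 3). ATP6V0A1 rises from 22.2% to 42.1% of the a subunit as TCIRG1 goes from 66.1% to 47.4%.

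Of the 20 lumenal genes, 10 were higher, 6 lower and 4 did not pass, with a median log2 fold change of 0.35. The lower share, 30%, was that of all tested genes (30.4%), and the higher share was 50%, against 29.2%. The summed level of the 20 went up 1.61-fold, from 21108 ± 752 to 34014 ± 1734 normalized counts (n = 3), and the 2 lumenal genes with the most counts, PSAP and CTSB, were among those that rose. Without PSAP the sum rose 1.40-fold.

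Among the peptidases 5 of 7 were higher (71.4%, against 29.2% of all tested genes) and none was lower (against 30.4%). TPP1, which trims tripeptides from protein ends, was at 1129, 1065 and 986 normalized counts in DMSO and 2491, 2288 and 2349.9 in PhenDC3, or 2.24-fold (limma log2 change 1.17, SE 0.07, adjusted p = 1.21e-11). CTSD, the main aspartic protease of lysosomes, was at 1385, 1330.0 and 1678 in DMSO and 3429, 2942 and 3257 in PhenDC3, or 2.19-fold (limma log2 change 1.14, SE 0.08, adjusted p = 2.31e-10). CTSA, a carboxypeptidase that also protects NEU1 and GLB1 in a complex, was at 1033, 1109.6 and 1199.9 in DMSO and 2268, 1946 and 2148 in PhenDC3, or 1.90-fold. In all 3 the groups lay well apart, and DMSO replicate 3 was the highest control for CTSD and CTSA and the lowest for TPP1. CTSB, an abundant cysteine protease, was at 3887, 4035 and 4259.5 in DMSO and 6178, 5737 and 5903 in PhenDC3, or 1.46-fold. CTSF, a cysteine protease at under 200 normalized counts, rose 1.72-fold. The remaining cathepsins did not pass. CTSZ, an exopeptidase, was at 1638, 1751 and 1917 in DMSO and 1757, 1639 and 1735 in PhenDC3, with overlapping groups (limma log2 change -0.05, SE 0.07, adjusted p = 0.583, 95% interval -0.19 to 0.10). CTSK, the collagen-cutting protease of osteoclasts, was low, at 10.9, 11.6 and 21.4 in DMSO and 21.3, 23.8 and 14.4 in PhenDC3, from 60 reads in DMSO and 45 in PhenDC3. At that depth no difference was detectable (limma log2 change 0.45, SE 0.30, adjusted p = 0.209, 95% interval -0.18 to 1.08). CTSD shares 41.7% of its exon bases with a readthrough gene on its strand.

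Enzymes that strip sugars or sulfate from sugar chains were split evenly, 4 higher, 4 lower and MANBA not passing. Each share was 44.4%, against 29.2% higher and 30.4% lower among all tested genes. SGSH (ENSG00000181523, chromosome 17), the sulfamidase of heparan sulfate breakdown, rose most. It was at 208, 244 and 225 normalized counts in DMSO and 800.0, 631 and 660.0 in PhenDC3, or 3.09-fold (limma log2 change 1.62, SE 0.10, adjusted p = 1.81e-11). HEXA, the alpha subunit of beta-hexosaminidase, was at 434, 448 and 490.3 in DMSO and 863, 808 and 854 in PhenDC3, or 1.84-fold. NEU1, the lysosomal sialidase, rose 1.35-fold, and GLA, alpha-galactosidase A, 1.21-fold (limma log2 change 0.28, SE 0.09, adjusted p = 0.0133). GLA no longer passed in limma without DMSO replicate 1 (adjusted p = 0.068) or without PhenDC3 replicate 3 (adjusted p = 0.0785).

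The fall was largest in GAA (ENSG00000171298, chromosome 17), which digests glycogen. It was at 330.0, 314 and 352 normalized counts in DMSO and 225, 185 and 140.4 in PhenDC3, or 0.552 of its DMSO level (limma log2 change -0.88, SE 0.13, adjusted p = 6.3e-06). The PhenDC3 libraries of GAA were the most scattered of the lumenal genes with over 100 counts, yet none reached a DMSO library. GUSB, beta-glucuronidase, fell from 534, 546 and 565 in DMSO to 359.8, 335 and 341 in PhenDC3, or to 0.630 (limma log2 change -0.67, SE 0.08, adjusted p = 4.06e-07). GUSB has 11 annotated pseudogenes, 4 of them with rows, of which the highest had a mean of 94.1 normalized counts, so part of its reads could be misassigned. NAGLU, which removes N-acetylglucosamine from heparan sulfate, was at 259.9, 257 and 304 in DMSO and 229.6, 183 and 211 in PhenDC3, or 0.759 of its DMSO level. GLB1, beta-galactosidase, was at 556, 568 and 578 in DMSO and 485, 438 and 483 in PhenDC3, or 0.826. MANBA, beta-mannosidase, was at 389.9, 368 and 343 in DMSO and 368, 354 and 358 in PhenDC3, with overlapping groups (limma log2 change -0.02, SE 0.08, adjusted p = 0.818, 95% interval -0.20 to 0.15).

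Changes in both directions occurred within single pathways. Heparan sulfate is taken apart by enzymes acting in turn, and those given here were put together after their values were seen. SGSH, IDS (1.47-fold) and HGSNAT (1.24-fold) were higher, GUSB and NAGLU lower, and IDUA did not pass. In the CTSA complex, CTSA and NEU1 rose and GLB1 fell.

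Among the lipid enzymes and activators 1 was higher, 2 lower and 1 did not pass. The shares were 25% higher and 50% lower, against 29.2% and 30.4% of all tested genes. PSAP (ENSG00000197746, chromosome 10), the precursor of the 4 saposins that present sphingolipids to their hydrolases, was at 5541, 5431 and 5752 normalized counts in DMSO and 12854, 11424 and 12346 in PhenDC3, or 2.19-fold (limma log2 change 1.13, SE 0.06, adjusted p = 3e-12). It had the highest level per kb of the 48 genes in both groups, 1941 in DMSO and 4251 in PhenDC3. LIPA, the acid lipase that frees cholesterol from its esters, fell from 694, 666 and 612 in DMSO to 496, 499 and 505 in PhenDC3, or to 0.760 (limma log2 change -0.39, SE 0.08, adjusted p = 0.000163). ASAH1, acid ceramidase, was at 275, 312 and 309 in DMSO and 276, 237 and 249 in PhenDC3, or 0.851, with groups that overlapped at their edges (limma log2 change -0.23, SE 0.10, adjusted p = 0.042). Its call was lost under 7 of the 12 other settings and on dropping any of 4 of the 6 libraries, with adjusted p from 0.0762 to 0.148 in those 4 (limma). PPT1, a thioesterase that removes palmitate from proteins, was at 1375, 1488 and 1434 in DMSO and 1339, 1409.8 and 1367 in PhenDC3 (limma log2 change -0.06, SE 0.06, adjusted p = 0.424, 95% interval -0.20 to 0.07). It shares 23.4% of its exon bases with CAP1 on the opposite strand, whose mean was 5018 normalized counts, and whether the counting used strand is not stated in the sources at hand.

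Membrane proteins and carriers rose or did not pass. Of 12, 9 were higher (75%, against 29.2% of all tested genes) and none lower (against 30.4%), with a median log2 fold change of 0.28. The sum went from 20232 ± 559 to 29013 ± 982 normalized counts (n = 3), or 1.43-fold. With no variance trend in limma 5 of the 12 were called, and the calls of LAMP1, NPC2, IGF2R and SCARB2 were lost. The large changes were confined to NPC1 and the 3 channels and transporters, which were the 4 genes of the 12 called at 2-fold or more.

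NPC1 (ENSG00000141458, chromosome 18) is the membrane protein that passes cholesterol from the lumen to the membrane. It was at 1906, 1853 and 1689 normalized counts in DMSO and 6119, 5676 and 5766 in PhenDC3, or 3.22-fold (limma log2 change 1.69, SE 0.06, adjusted p = 1.44e-14). No gene of the 48 had a smaller adjusted p. NPC2, the soluble protein that hands cholesterol to NPC1, was also higher, at 742, 698 and 819 in DMSO and 935, 849 and 895 in PhenDC3, or 1.19-fold (limma log2 change 0.25, SE 0.08, adjusted p = 0.0082). It did not pass in limma without DMSO replicate 2 (adjusted p = 0.0664). Of the proteins that free and carry lysosomal cholesterol, NPC1 and NPC2 were thus higher and LIPA lower.

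All 3 ion channels and transporters rose, by 2.40-fold to 2.63-fold. MCOLN1, the cation channel TRPML1 that releases calcium, was at 119.9, 107 and 131 normalized counts in DMSO and 349, 279.9 and 314 in PhenDC3, or 2.63-fold (limma log2 change 1.39, SE 0.11, adjusted p = 1.69e-09). CLCN7, which exchanges chloride for protons, was at 462, 493 and 507 in DMSO and 1278, 1088 and 1183 in PhenDC3, or 2.43-fold. CTNS, which exports cystine, was at 268, 246 and 263 in DMSO and 652, 591 and 621 in PhenDC3, or 2.40-fold. In none of the 3 did a PhenDC3 library come near the DMSO range, and PhenDC3 replicate 1 was the highest and replicate 2 the lowest each time. OSTM1, the partner protein of CLCN7 and not one of the 48, was at 531, 517 and 511 in DMSO and 508, 564 and 568 in PhenDC3 and did not pass (limma log2 change 0.07, SE 0.08, adjusted p = 0.445).

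Among the structural glycoproteins 3 of 4 were higher (75%, against 29.2% of all tested genes). CD63, a tetraspanin of late endosomes and lysosomes, was at 2216, 2181 and 2586 normalized counts in DMSO and 3917, 3366 and 3714 in PhenDC3, or 1.58-fold (limma log2 change 0.66, SE 0.07, adjusted p = 1.72e-07). LAMP1 was at 2896, 3027 and 3232 in DMSO and 3788, 3423 and 3436 in PhenDC3, or 1.16-fold (limma log2 change 0.22, SE 0.06, adjusted p = 0.00617). LAMP2, its paralog, one form of which is the receptor of chaperone-mediated autophagy, was at 1556, 1481 and 1435 in DMSO and 1507, 1648 and 1564 in PhenDC3, with overlapping groups (limma log2 change 0.08, SE 0.06, adjusted p = 0.317, 95% interval -0.06 to 0.21). The PhenDC3 libraries of LAMP2 reached above its DMSO libraries in part only. SCARB2, also known as LIMP-2, a sorting receptor and abundant membrane glycoprotein of lysosomes, was at 2333, 2391 and 2074 in DMSO and 2444, 2556 and 2559.8 in PhenDC3, or 1.11-fold (limma log2 change 0.16, SE 0.07, adjusted p = 0.0464). That call was lost under 5 of the 12 other settings and on dropping any of 4 of the 6 libraries. Without DMSO replicate 3, its lowest library, the adjusted p was 0.124 in limma. TMEM55A, a phosphoinositide phosphatase, was at 184, 191 and 187 in DMSO and 207, 213 and 203 in PhenDC3 and did not pass (limma log2 change 0.15, SE 0.10, adjusted p = 0.192), although its groups did not overlap.

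The 2 mannose 6-phosphate receptors sort new hydrolases towards lysosomes, and 1 of them was higher. IGF2R, the large receptor, was at 5905, 5863 and 4668 normalized counts in DMSO and 6999, 6558 and 6634 in PhenDC3, or 1.23-fold (limma log2 change 0.30, SE 0.08, adjusted p = 0.00167). DMSO replicate 3 was its lowest library. M6PR, the small one, was at 1939, 2052 and 1998 in DMSO and 1882, 1894 and 1930.0 in PhenDC3 and did not pass (limma log2 change -0.07, SE 0.06, adjusted p = 0.33), with a 95% interval from -0.20 to 0.06. M6PR shares 29.3% of its exon bases with PHC1 on the opposite strand, which had a mean of 63.6.

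**Figure D4:**
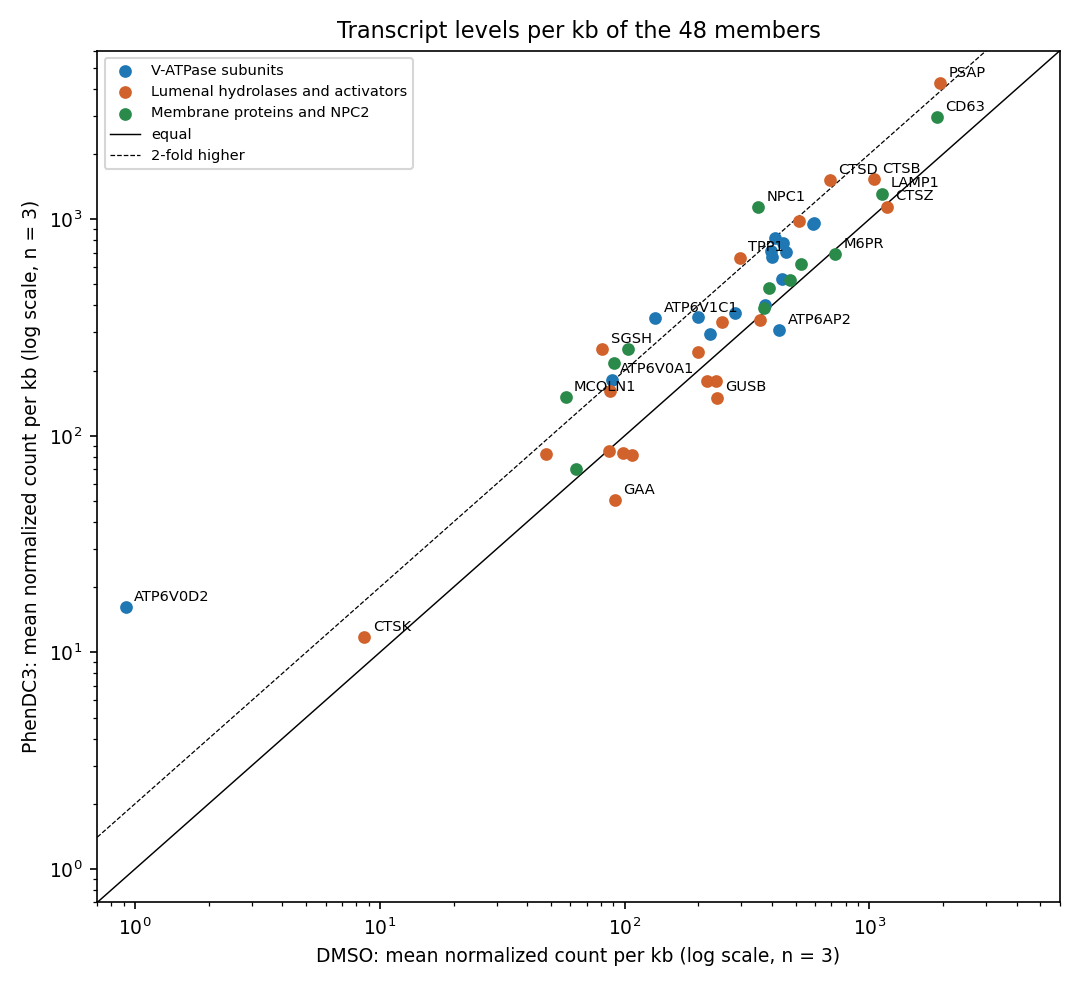
Mean normalized count per kb of the longest coding transcript in DMSO (horizontal) and PhenDC3 (vertical), both on log axes, for the 48 genes. PSAP and CD63 are the most abundant, NPC1 and SGSH lie above the line of a 2-fold rise, and GAA, GUSB and ATP6AP2 lie below the line of equality.

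Levels per kb of the longest coding transcript spanned 3 orders of magnitude. In DMSO PSAP (1941 normalized counts per kb), CD63 (1888), CTSZ (1183), LAMP1 (1131) and CTSB (1048) led, and ATP6V0D2 (0.915) and CTSK (8.64) were lowest. In PhenDC3 the order after PSAP (4251) and CD63 (2973) was CTSB (1533), CTSD (1512), LAMP1 (1315), CTSZ (1144) and NPC1 (1135). PSAP and CD63, and CTSZ and LAMP1, lay within each other's spread in DMSO, as did CTSB and CTSD, and CTSZ and NPC1, in PhenDC3. Within the pump in DMSO, ATP6V1F (597) and ATP6V1E1 (589) were the highest and ATP6V0A1 (88.5) and ATP6V1C1 (134) the lowest of the widely expressed subunits. In PhenDC3 those last were at 182 and 350 per kb.

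The 13 genes with a TCACGTG match can be set against their changes. Of them 11 were higher, M6PR did not pass and GAA was lower. Of the 19 genes with a window and no such match, 12 were higher, 4 lower and 3 did not pass. Among all tested genes 29.2% were higher and 30.4% lower, and the share called among all tested genes with the match is not given here. Both sets come from genes chosen by name, and the difference between the 13 and the 19 was not tested. Genes without a window, SGSH, PSAP, ATP6V1C1 and CTSB among them, are in neither count. The full palindrome was in genes that rose by very different amounts, MCOLN1 at 2.63-fold, ATP6V1G1 at 1.75-fold and IGF2R at 1.23-fold, and occurred 2 times in GAA, which fell. The windows of MCOLN1 and GAA are therefore printed whole, with the matches in capitals, as the same element in a gene that rose and a gene that fell. The first lies at chr19:7522374-7522673 on the plus strand and the second at chr17:80101331-80101630, also on the plus strand, both on GRCh38.p14. A match is a description of letters and does not show that a factor was bound.

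MCOLN1: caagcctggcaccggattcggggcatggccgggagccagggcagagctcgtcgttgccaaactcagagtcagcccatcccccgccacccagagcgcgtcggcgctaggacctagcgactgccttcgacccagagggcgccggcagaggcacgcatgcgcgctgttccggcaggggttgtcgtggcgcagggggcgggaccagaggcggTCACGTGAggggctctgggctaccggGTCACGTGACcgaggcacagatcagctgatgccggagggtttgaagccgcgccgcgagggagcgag
GAA: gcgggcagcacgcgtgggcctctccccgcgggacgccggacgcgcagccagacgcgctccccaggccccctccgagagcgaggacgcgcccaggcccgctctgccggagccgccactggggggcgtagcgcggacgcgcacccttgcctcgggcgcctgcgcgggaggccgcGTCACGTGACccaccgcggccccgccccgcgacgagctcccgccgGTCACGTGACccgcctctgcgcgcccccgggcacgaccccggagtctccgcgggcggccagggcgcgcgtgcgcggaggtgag

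NPC1, which rose most among the membrane proteins, held none of the E-box forms in its window. Of the factors known to bind this element, TFE3 was at 1087, 1093 and 1106 normalized counts in DMSO and 1820.2, 1611 and 1789.6 in PhenDC3, or 1.59-fold (limma log2 change 0.67, SE 0.07, adjusted p = 3.89e-08). TFEB was at 66.1 ± 10.4 in DMSO and 69.3 ± 7.65 in PhenDC3 (mean ± SD, n = 3) and did not pass. MITF was at 163 ± 5.201 in DMSO and 153 ± 17.9 in PhenDC3 and did not pass either, and TFEC was too low to be tested.

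Of 92 listed lysosome genes outside the 48, 84 were tested, and 31 were higher, 21 lower and 32 did not pass, with a median log2 fold change of 0.06. These shares, 36.9% higher and 25% lower, were near those of all tested genes (29.2% and 30.4%), so the counts set these genes little apart from the rest. Of 27 tested lumenal enzymes and activators 10 were higher (37.04%) and 8 lower (29.6%), again near all tested genes. CTSL, a cysteine protease, rose 1.73-fold and GALNS, a sulfatase, 1.61-fold, while PLBD2 fell to 0.453 and SIAE, a sialic acid esterase, to 0.667. Of 28 other membrane proteins 12 were higher (42.9%) and 5 lower (17.9%). CLN3 rose 2.23-fold, SLC17A5, the sialic acid exporter, 1.92-fold and TMEM55B, the paralog of TMEM55A, 1.84-fold, while LAPTM4A fell to 0.738, TMEM175, a potassium and proton channel, to 0.741 and SLC38A9, an arginine sensor, to 0.752.

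Of 15 genes that equip and sort hydrolases 7 were higher (46.7%, against 29.2% of all tested genes). Another 5 were lower (33.3%), near the 30.4% of all tested genes. VPS26A, a subunit of the retromer that recycles sorting receptors, rose 1.60-fold, CLN8, which moves enzymes out of the endoplasmic reticulum, 1.52-fold and GGA3, an adaptor of the receptors, 1.32-fold. SUMF1, which activates sulfatases such as SGSH, fell to 0.578, SORT1, an alternative sorting receptor, to 0.653 and SUMF2 to 0.746. GNPTAB, whose product makes the mannose 6-phosphate tag, fell to 0.771 (limma log2 change -0.37, SE 0.08, adjusted p = 0.000521).

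**Figure D5:**
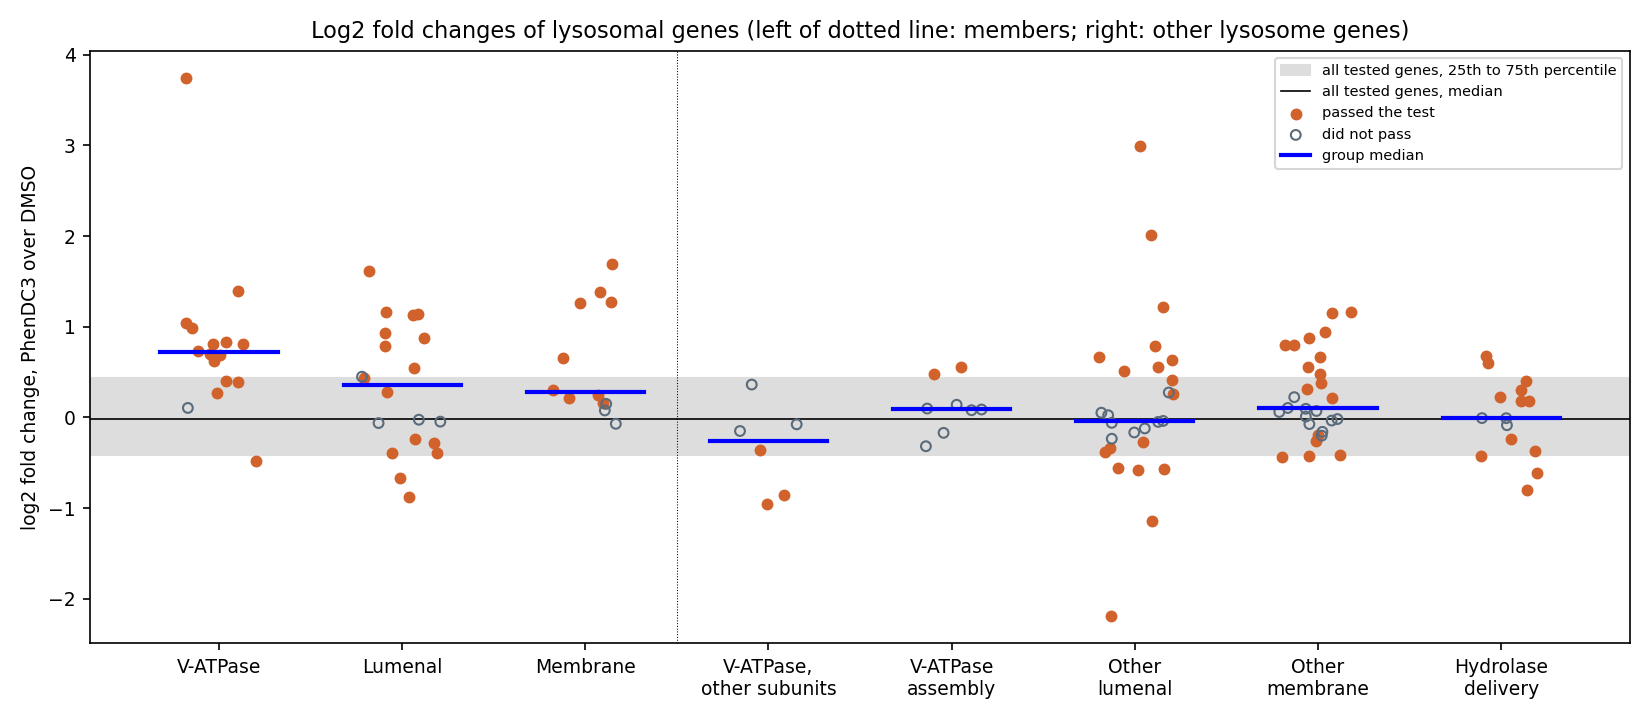
Log2 fold change of every tested gene of the 3 groups described here and of 5 lists of other lysosome genes, with group medians as bars and the 25th to 75th percentile of all tested genes shaded. The V-ATPase median of 0.72 lies above the shaded band. The lumenal median of 0.35 and the membrane median of 0.28 lie within it, as do the medians of the 5 other lists.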

How the data were processed

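RNA was measured in 6 HT-1080 libraries, 3 per group, grouped by the labels' treatment. Per the submitters' processing notes the tools include STAR 2.7, featureCounts and DESeq2 1.18.1, besides TopHat2 2.0.11, Cufflinks 2.2.1, Cuffdiff and CASAVA, with build hg19. Their roles are not stated there, nor are an annotation and the strandedness used in counting. The deposited values are a normalized signal, reads per gene divided by the authors' size factor of each library. Dividing by the step of each library gave whole reads for every value within 1e-06. The authors' log2 fold changes, p-values and adjusted p-values are in the deposited table and were used for comparison only.

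Genes with a mean of 5 or more were tested on log2(value + 1) with limma 3.58.1 (R 4.3.3), with a variance trend and Benjamini-Hochberg adjustment over 16482 genes, at 0.05. Fold changes are ratios of group means, and log2 fold changes on the log2(value + 1) scale understate those of low genes. Levels per kb used the longest coding transcript of GENCODE 29, and promoter windows came from RefSeq. Tested on simulated data of 16503 genes for PhenDC3 against DMSO, the fit recovered 50.8% of 1.5-fold, 84.6% of 2-fold and all of 4-fold changes, with 7 false calls among 158. The simulation changed 200 genes at 1 fixed dispersion of 0.01, whereas 59.6% of tested genes were called in the data. These rates describe the simulated setting only.

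The 48 genes and the other lists were chosen with earlier results of these data known. All 48 are named with their fold change. Values per library are given for up to 4 genes of each functional subgroup with the smallest adjusted p, and for genes that did not pass or moved against the majority. Of other lysosome genes, up to 3 called in each direction per list with a mean of 50 or more are named, except some that are not reported here, besides paralogs and pathway partners picked after their values were seen (ATP6V0A2, OSTM1, IDS, HGSNAT, IDUA and GNPTAB). Alternatives were other pseudocounts, filters and scalings, edgeR 4.0.16, DESeq2 1.42.0, the authors' values, no variance trend, thinned reads, a replicate block and leaving out each library. Library depth is given with the samples and sets counting error only.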

Additional observations from a re-analysis of the deposited data

How the results depend on the processing

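Among the 48 genes, 29 to 33 were higher and 6 or 7 lower under the 12 settings other than leaving out a library, and 31 or 32 and 6 or 7 without 1 library. Of 574 single-gene values under those settings 558 kept direction and call, 15 lost the call and 1 turned sign, and of 288 with a library left out these were 275, 11 and 2. The genes that lost a call were GLA, ASAH1, LAMP1, SCARB2, NPC2 and IGF2R. The sign turned in 2 genes that passed nowhere, CTSZ (0.0136 without DMSO replicate 3, with -0.09969 to 0.0136 over libraries left out) and MANBA (0.01189 with thinned reads, and -0.07281 to 0.02 over libraries left out, the highest without DMSO replicate 1). The median log2 fold change of the 48 was 0.46 with TMM scaling and 0.46 to 0.62 with a library left out. With no variance trend 5 membrane genes were higher. The mean filter of 50 or more left out ATP6V0D2 and CTSK.

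Against promoters of tested genes only, the shares were 12.5% for CACGTG, 7.31% for TCACGTG, 2.29% for TCACGTGA, 0.903% for the CLEAR palindrome, 2.57% for TCATGTG and 41.3% for the G quadruplex motif. Genes called over all ran from 7911 (mean of 50 or more) to 10454 (no filter), with 9437 in edgeR and 8418 in DESeq2. The same replicate numbers did not pair the libraries (correlations of deviations 0.0079, 0.0712 and 0.027). With the replicate block 10155 genes were called, and of the 48 genes 33 were higher and 7 lower. The block changed no call among them. The cause of these shifts was not tested. Counts under 100 limit CTSK and ATP6V0D2.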
